A study of Arabidopsis thaliana with 12 samples.

Results

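Dark-grown Arabidopsis seedlings that lack the splicing factor SFPS were compared after 3 h of red light and after 3 h of further darkness. The 6 libraries analysed, of 12 in the series, are those labelled as the sfps-2 mutant: 3 given red light and 3 kept in the dark. The sfps-2 line carries a knockout of SFPS (SFPS -/-) in the Col-0 background, and the wild-type libraries set beside it are Col-0 under the same conditions. Seeds were sown on agar without sucrose, chilled for 4 days at 4°C, given 3 h of white light to start germination and then grown for 4 days in the dark. The red light was continuous, at 7 μmol m-2 s-1. RNA came from whole seedlings and was freed of ribosomal RNA before stranded libraries were made, so all organs are mixed. Whether a group's 3 replicates were grown as separate cultures is not stated in the labels, so p-values measure only the spread between these samples, which may be technical.

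Red light is read by phytochromes, photoreceptors that move into the nucleus when activated and there cause the loss of PIF transcription factors. PIFs hold seedlings in dark growth, with a long hypocotyl, a closed hook and undeveloped plastids. Without them, genes for chlorophyll synthesis and photosynthesis are turned on and genes of elongation are turned off. SFPS is a nuclear protein of the spliceosome that binds phytochrome B, and mutants that lack it are less sensitive to light. Introns that stay in a mature transcript are the commonest alternative splicing event in plants, and many such transcripts are kept in the nucleus or degraded.

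The targeted gene checked the labels. SFPS (AT1G30480, chromosome 1, 10786979 to 10792575, TAIR10) had no spliced read across its listed intron in any of the 3 red-light or 3 dark sfps-2 libraries. The wild-type libraries had 100, 86 and 90 such reads in red light and 134, 106 and 106 in the dark. Its group FPKM (fragments per kilobase of transcript, scaled to the number of mapped fragments) was 1.97 in red light and 1.86 in the dark in sfps-2, against 7.82 and 7.88 in wild type. The difference between red light and dark did not pass the test in either genotype. Expression levels were deposited only as FPKM of a whole group, so no error can be placed beside a level, and depth per library is unknown. Splicing was deposited as junction reads per library, from 181591 to 261621 reads per sfps-2 library over the listed bins, a ratio of 1.44. The 133 chloroplast-encoded and 146 mitochondrion-encoded genes were listed at 0 and were not tested.

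In genes called higher in red light, a pair of libraries stood apart in spliced reads, which were counted at 1 intron per gene in 674 genes. Among 167 genes called higher in red light, red-light replicate 3 was the lowest of the 3 red-light libraries in 121. In the same 167 genes, dark replicate 2 was the highest of the 3 dark libraries in 101. Without red-light replicate 3, edgeR's quasi-likelihood test (a test added after the data were seen) called 141 of these genes higher, against 141 with all libraries, and without dark replicate 2 it called 139. The 74 genes called lower did not show this pattern. There red-light replicate 3 was the lowest red-light library in 22 and the highest in 24. Dark replicate 2 was the highest dark library in 24 and the lowest in 34.

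Red light moved 21.4% of the tested genes of sfps-2, and more genes rose than fell. Of 20970 genes tested, 2601 rose (12.4%) and 1882 fell (8.97%), at a q under 0.05 in the authors' deposited table and a fold of at least 1.5. Of these, 123 rose and 89 fell at least 10-fold. The median log2 change over all tested genes was -0.01. In wild type, 3078 of 20635 genes rose (14.9%) and 1208 fell (5.85%), 20.8% in all. Among genes tested in both genotypes, 1957 rose in both, which is 77.1% of the genes that rose in sfps-2 and 63.9% of those that rose in wild type. Fewer falls were shared in sfps-2: 817 genes fell in both, 44.5% of the falls in sfps-2 and 68.3% of those in wild type. Another 176 genes fell in sfps-2 and rose in wild type, and 24 did the opposite. The light responses themselves, compared as a difference of log2 changes with normal p-values adjusted over 20420 genes, differed in 1213 genes (5.94%). The response was higher in sfps-2 in 277 of them (1.36%) and lower in 936 (4.58%). The standard errors come from the Cuffdiff statistic scaled to its p-values. With errors taken straight from that statistic 297 genes differed, so counts of differing responses below are given under both errors.

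The genes that rose most were those of the light-harvesting antenna, the chlorophyll-binding proteins that feed the photosystems. All 21 antenna genes tested rose, with a median log2 change of 3.15, and their summed level was 28637.7 FPKM in red light against 2996.93 FPKM in the dark. LHCB1.1 (AT1G29920) stood at 1260 FPKM in red light and 3.12 FPKM in the dark, a log2 change of 8.66. LHCB1.4 reached 1112 FPKM against 2.89 FPKM in the dark, and LHCB1.2 reached 622 FPKM against 3.64 FPKM. No other called gene that had 1 FPKM or more in each condition rose further in sfps-2. LHCB1.3 held the highest level of any called gene after light, 4931 FPKM, but it already stood at 795 FPKM in the dark. The LHCB1 copies are near-identical, so the split of reads among them is uncertain. LHCB2.2, LHCB2.1, LHCA1 and LHCB3 changed by 5.98, 5.27, 5.27 and 4.89 on the log2 scale. The smallest antenna rise was LHCB4.3, with 22.3 FPKM in red light and 11.5 FPKM in the dark (log2 change 0.96).

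The antenna response of LHCB1.4 differed most from wild type. Its log2 change was 4.33 higher in sfps-2 (SE 0.31, adjusted p 3.87e-41, from the normal test of the difference). With straight standard errors the same test gave an adjusted p of 6.31e-13. The deposited Cuffdiff p-values stop at 5e-05, so the size of p-values far below that is an extrapolation. In wild type LHCB1.4 stood at 591 FPKM in red light and 30.9 FPKM in the dark, so the dark level was the one that differed more. Of the 21 antenna responses, 3 were higher and 3 lower in sfps-2, and with straight standard errors 1 was higher and 0 were lower.

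**Figure D1:**
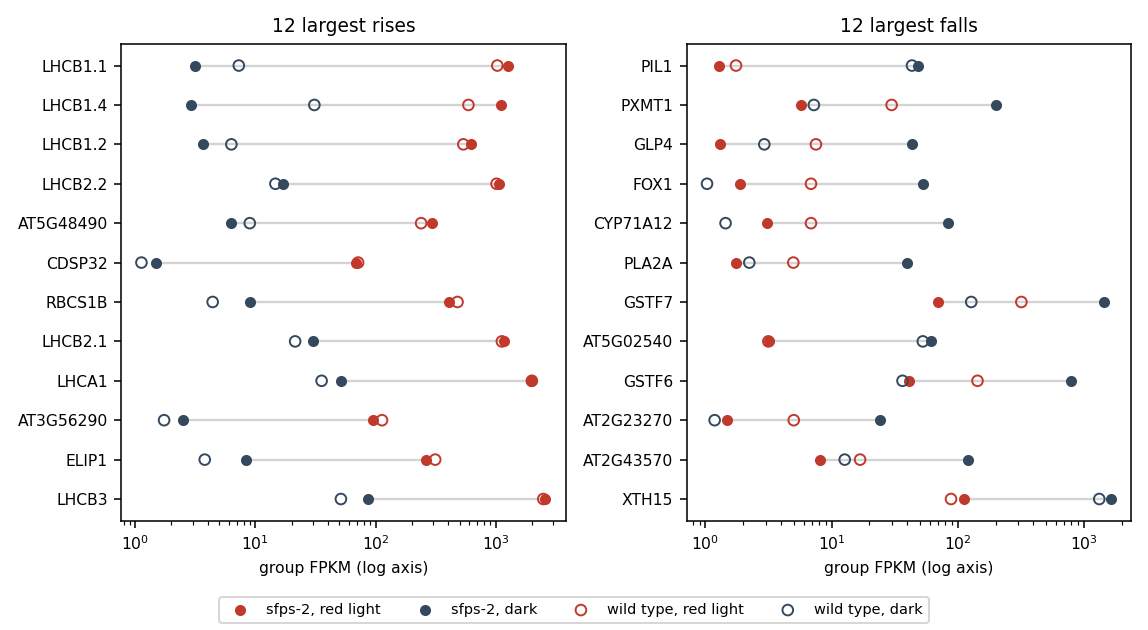
Group FPKM (log axis) of the 12 genes with the largest rise (left) and the 12 with the largest fall (right) in sfps-2, taken from called genes at 1 FPKM or more in each condition. Filled points are sfps-2, open points wild type, red light in red and dark in dark blue. All 12 rises are also higher in red light in wild type. In 9 of the 12 falls, those other than PIL1, AT5G02540 and XTH15, wild type is higher in red light than in the dark.

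Genes of the photosystems and of electron transport rose without exception. All 33 tested rose, from PSAE-2 (374 FPKM in red light, 199 FPKM in the dark, log2 change 0.91) to PSAH2 (1053 and 71.2 FPKM, log2 change 3.89). PSBS, the photosystem II subunit that sets off heat dissipation, stood at 785 FPKM in red light and 96.2 FPKM in the dark. The plastocyanin gene PETE2 stood at 988 FPKM against 181 FPKM. The median log2 change was 2.15 in sfps-2 and 2.92 in wild type. The response was lower in sfps-2 for 14 of the 33 and higher for 0, and with straight standard errors it differed for 0. Their summed level was 22785.4 FPKM in red light and 4971.42 FPKM in the dark in sfps-2, and 23675.1 and 3220.45 FPKM in wild type. The red-light sums lay close together and the dark sum was the higher one in sfps-2.

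Most genes of carbon fixation rose as well. Of 22 Calvin cycle genes, 18 rose, 1 fell and 3 did not pass, with a median log2 change of 1.77. RBCS1B, a Rubisco small subunit, stood at 405 FPKM in red light and 9.07 FPKM in the dark. FBA1, a plastid aldolase, stood at 194 FPKM against 7.27 FPKM, and RCA, Rubisco activase, at 1197 FPKM against 139 FPKM. The highly expressed copy RBCS1A changed less, with 3414 FPKM in red light and 1165 FPKM in the dark (log2 change 1.55). Reads of the RBCS copies may be shared. The fall was CP12-3, with 5.29 FPKM in red light and 11.0 FPKM in the dark. The photorespiratory pathway, which recycles the product of Rubisco's oxygenase activity, had 13 rises and 1 fall among 17 tested genes. GLDP1 of the glycine decarboxylase reached 337 FPKM against 22.6 FPKM in the dark, and SHM1, its partner hydroxymethyltransferase, 242 FPKM against 32.3 FPKM. GLYK, the glycerate kinase, fell to 252 FPKM against 388 FPKM. Responses were lower in sfps-2 than in wild type for 9 of 22 Calvin cycle and 9 of 17 photorespiration genes, and with straight standard errors for 0 and 0.

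Most genes of chlorophyll synthesis rose. Of 30 tetrapyrrole genes, 18 rose, 1 fell and 11 did not pass, with a median log2 change of 0.95. CHLH, a subunit of magnesium chelatase, stood at 568 FPKM in red light and 47.0 FPKM in the dark. GUN4, its activator, stood at 166 FPKM against 22.2 FPKM, and HEMA1, the glutamyl-tRNA reductase that starts the pathway, at 231 FPKM against 51.2 FPKM. CAO, which makes chlorophyll b, stood at 161 FPKM against 32.6 FPKM. The protochlorophyllide reductases went separate ways. PORA, the form of dark-grown seedlings, fell to 37.3 FPKM in red light against 282 FPKM in the dark. PORC stood at 72.8 FPKM against 9.65 FPKM and rose, while PORB, at 263 FPKM and 327 FPKM, did not pass. Among 17 carotenoid and isoprenoid genes 11 rose, led by LUT5 (15.9 FPKM against 3.28 FPKM) and PSY, phytoene synthase (157 FPKM against 36.4 FPKM).

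Regulators of the plastid moved with it. Of 12 tested, 9 rose. SIG5, a sigma factor of the plastid RNA polymerase that responds to light, stood at 70.4 FPKM in red light and 3.02 FPKM in the dark. The GATA factor CGA1 stood at 16.6 FPKM against 0.77 FPKM. GLK1 and GLK2, activators of photosynthesis genes, changed by 0.82 and 1.6 on the log2 scale. Of 15 genes of protein import and folding 7 rose, and CPN60A and CPN60B, the chaperonins that fold Rubisco, were among them. The photoprotection list had 10 rises and 2 falls among 22. ELIP1 and ELIP2, early light-induced proteins, reached 260 and 295 FPKM against 8.37 and 14.0 FPKM in the dark. Their log2 changes were 1.41 and 1.85 smaller than in wild type, with adjusted p of 3.19e-05 and 2.18e-09 by the normal test of the difference, and of 0.2 and 0.01 with straight standard errors. CDSP32, a plastid thioredoxin, stood at 69.0 FPKM against 1.48 FPKM. The falls were LIL3.2 and FSD1, an iron superoxide dismutase that stood at 32.8 FPKM against 63.6 FPKM.

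The genes that PIFs activate in the dark fell together. All 19 shade and PIF target genes tested fell, with a median log2 change of -2.18, against -2.25 in wild type. PIL1, a PIF-related factor, fell furthest, to 1.28 FPKM in red light against 48.3 FPKM in the dark. XTH15, a cell wall enzyme, fell to 111 FPKM against 1649 FPKM, and ATHB2, a homeodomain factor of shade growth, to 10.2 FPKM against 93.2 FPKM. SAUR22, an auxin-induced growth gene, fell to 18.3 FPKM against 112 FPKM. Only HAT2 of the 19 differed in response between genotypes (log2 change -0.84 in sfps-2, -1.56 in wild type, adjusted p 0.011), and with straight standard errors 0 did.

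The photoreceptor pathway itself shifted member by member. Of 30 genes of phytochrome and light signalling 13 rose and 5 fell. The falls were PHYA, the phytochrome of dark-grown seedlings (175 FPKM in red light, 422 FPKM in the dark), its nuclear import partners FHY1 (31.5 and 103 FPKM) and FHL (9.13 and 35.7 FPKM), PIF6 and BBX21. PHYB stood at 32.5 FPKM in red light and 39.9 FPKM in the dark and did not pass, nor did PHYC, PHYD or PHYE. The rises held repressors and activators alike. SPA1, a partner of the COP1 ubiquitin ligase, stood at 84.2 FPKM against 17.9 FPKM, and COP1 itself at 32.8 FPKM against 19.6 FPKM. HY5 and HYH, factors that promote light development, stood at 77.2 and 71.5 FPKM in red light against 39.8 and 8.29 FPKM in the dark. PIF7 stood at 12.1 FPKM against 0.49 FPKM. No member differed in response from wild type under either error.

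The circadian clock list had 10 rises and 2 falls among 21. The morning factors CCA1 and LHY rose to 44.2 and 31.7 FPKM against 21.4 and 15.1 FPKM in the dark. LNK1, a coactivator that acts with them, stood at 74.2 FPKM against 17.1 FPKM, and the repressor PRR9 at 21.0 FPKM against 5.92 FPKM. ELF4 of the evening complex stood at 15.4 FPKM against 4.25 FPKM. BOA and LUX, related factors of that complex, fell to 21.0 and 36.9 FPKM against 54.6 and 55.8 FPKM, the fall of LUX no longer passing when changes were centred on the median of all genes. None of the 21 responses differed from wild type under either error.

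A search of the 250 bases before each RefSeq gene start set these lists beside all tested genes. The G-box, CACGTG, which PIFs and HY5 bind, was found in 7.54% of 20630 promoters of tested genes, in 8.71% of promoters of genes that rose, in 5 of 21 antenna promoters, in 6 of 21 clock promoters and in 1 of 19 promoters of the shade and PIF target list. The evening element, AAAATATCT, was found on either strand in 2.45% of all and in 5 of 21 clock promoters. These are matches of letters, and the 2 motifs do not overlap each other. The promoters of LHCA4, PRR9 and BOA are shown as examples of an antenna gene, a clock gene that rose and a clock gene that fell. Capitals mark a G-box, an I-box (GATAAG) or an evening element on either strand, and each run reads 5' to 3' on the gene's strand in RefSeq TAIR10.1.
LHCA4 promoter, chr3:17495034-17495283, minus strand: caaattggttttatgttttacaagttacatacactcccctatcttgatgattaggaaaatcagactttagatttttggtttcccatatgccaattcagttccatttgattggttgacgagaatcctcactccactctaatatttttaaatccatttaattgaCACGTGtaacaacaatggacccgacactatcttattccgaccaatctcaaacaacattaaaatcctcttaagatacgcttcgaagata
PRR9 promoter, chr2:19232357-19232606, plus strand: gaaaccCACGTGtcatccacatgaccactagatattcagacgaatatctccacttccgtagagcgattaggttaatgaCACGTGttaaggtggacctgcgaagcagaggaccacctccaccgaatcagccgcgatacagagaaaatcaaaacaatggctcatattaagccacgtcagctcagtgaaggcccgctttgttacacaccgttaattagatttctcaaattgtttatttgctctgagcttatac
BOA promoter, chr5:24003638-24003887, plus strand: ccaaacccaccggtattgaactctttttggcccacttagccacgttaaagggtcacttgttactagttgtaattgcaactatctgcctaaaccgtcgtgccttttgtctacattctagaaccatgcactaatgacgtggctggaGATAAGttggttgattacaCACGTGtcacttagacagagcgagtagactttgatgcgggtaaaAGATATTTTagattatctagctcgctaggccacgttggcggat
PRR9 held 2 G-boxes and BOA held a G-box, an I-box and an evening element.

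Hormone genes were mixed. Ethylene, which holds the apical hook closed in the dark, had 12 falls and 1 rise among 24 genes. ACS5, a synthesis enzyme, fell to 2.56 FPKM against 26.3 FPKM, HLS1, the hook gene, to 5.49 FPKM against 20.3 FPKM, and the receptors ERS2 and ETR2 to 5.84 and 3.99 FPKM against 21.6 and 12 FPKM. The rise was ACS9, at 1.09 FPKM against 0.22 FPKM. Gibberellin and brassinosteroid genes had 4 rises and 6 falls among 27. GA2OX1, which inactivates gibberellin, stood at 19.2 FPKM against 1.02 FPKM, while GA2OX6 fell to 17.2 FPKM against 51.2 FPKM and the DELLA gene GAI to 29.7 FPKM against 64.3 FPKM. Among 11 cytokinin genes 5 rose and 0 fell, all 5 being type-A response regulators, among them ARR16 (2.56 FPKM against 0.37 FPKM) and ARR7 (10.4 FPKM against 4.56 FPKM).

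Starvation genes fell and flavonoid genes rose. Of 13 dark and starvation genes 12 fell, with a median log2 change of -1.41, against -1.31 in wild type. ASN1, the asparagine synthetase of starved cells, fell to 186 FPKM against 979 FPKM, and SEN1 to 257 FPKM against 1138 FPKM. Of 12 flavonoid genes tested 11 rose, with a median log2 change of 2.63. CHS, chalcone synthase, stood at 39.5 FPKM against 1.6 FPKM, and its activator PAP1 at 9.09 FPKM against 1.09 FPKM. Starch genes rose in 6 of 9, led by BAM3, a plastid amylase (18.3 FPKM against 1.43 FPKM). Nitrate reductase NIA1 fell to 103 FPKM against 160 FPKM in sfps-2, while it rose in wild type (167 FPKM against 85.4 FPKM), a difference of -1.61 in log2 change with adjusted p 3.23e-07 by the normal test and 0.049 with straight standard errors. Cell cycle genes rose in 2 of 17 and splicing factor genes in 1 of 30, that being SCL30A (30.3 FPKM against 19.2 FPKM), and 0 genes of either list fell.

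Genes of the indole glucosinolate and camalexin list, named for tryptophan-derived defence compounds, moved against wild type. Not every member is an enzyme of their synthesis. The list was drawn up with earlier results of these data known. It holds PXMT1, FOX1, CYP71A12, GSTF6 and GSTF7, which are among the largest falls of this contrast. Of 20 tested, 17 fell in red light in sfps-2, 1 rose and 2 did not pass, with a median log2 change of -2.87. In wild type 12 of 19 rose, 0 fell and the median was 1.45. PXMT1 (AT1G66700) stood at 5.77 FPKM in red light and 203 FPKM in the dark in sfps-2, against 30 and 7.24 FPKM in wild type. CYP71A12, of camalexin and related synthesis, stood at 3.06 and 83.8 FPKM in sfps-2, against 6.87 and 1.44 FPKM in wild type. PAD3, the last enzyme of camalexin synthesis, stood at 0.82 and 14.4 FPKM in sfps-2, against 1.26 and 0.38 FPKM in wild type. GSTF6 and GSTF7, glutathione transferases with shared sequence, stood at 41.0 and 70.4 FPKM in red light and at 793 and 1446 FPKM in the dark in sfps-2. The exception was MYB34, a regulator of the pathway, which rose in both genotypes, to 58.1 FPKM against 21.1 FPKM in sfps-2. The response was lower in sfps-2 for 16 of 19 members, and for 12 with straight standard errors.

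The level that set this list apart was that of the dark sfps-2 group. The summed level was 662 FPKM in red light and 3683 FPKM in the dark in sfps-2, against 1237 and 805 FPKM in wild type. GSTF6 and GSTF7 made up 793 and 1446 FPKM of the dark sfps-2 sum. Defence regulators showed a smaller shift, with 9 falls and 1 rise among 21 genes, against 2 falls and 6 rises in wild type. WRKY33, an activator of camalexin synthesis, fell to 25.2 FPKM against 49.6 FPKM, and FLS2, the flagellin receptor, to 3.64 FPKM against 16.3 FPKM. The rise was SID2, the enzyme of salicylic acid synthesis, at 15 FPKM against 2.85 FPKM. Of 12 phenylpropanoid and coumarin genes 2 rose, 2 fell and 8 did not pass, against 9 rises and 0 falls in wild type. F6'H1, an enzyme of coumarin synthesis, stood at 10.1 and 109 FPKM in sfps-2, against 20.1 and 4.12 FPKM in wild type. Responses were lower in sfps-2 for 6 of 21 defence and 5 of 12 phenylpropanoid genes, and for 2 and 1 with straight standard errors.

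The indole genes were not among those with spliced reads per library, and other genes that fell in sfps-2 alone had unequal dark libraries. GSTF2, a defence glutathione transferase chosen after its values were seen, had 602, 462 and 1240 normalised spliced reads in red light and 2990, 799 and 6311 in the dark. GSTL1 had 0, 0.959 and 2.97 reads in red light and 38.6, 5.74 and 113 in the dark. Dark replicate 2 was the lowest dark library in both genes, and the groups overlapped in GSTF2 (edgeR adjusted p 0.044). Over the 31 genes that fell in sfps-2 and not in wild type it was the lowest of the dark libraries in 17, against 17 of the 43 genes that fell in both. Groups did not overlap, in the direction of the FPKM, in 17 of the 31 and 42 of the 43. Whether the fall of the indole list holds without dark replicate 2 was not tested, as its levels are group values.

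TTGACC, a form of the W-box that WRKY factors bind, was found in 12.4% of promoters of tested genes. It was found in 18.0% of promoters of genes that fell in sfps-2 and in 6 of 20 indole promoters. Other forms of the W-box were not searched. PXMT1 and CYP81F2, an enzyme of indole glucosinolate modification, are shown as examples with TTGACC in capitals on either strand.
PXMT1 promoter, chr1:24874767-24875016, minus strand: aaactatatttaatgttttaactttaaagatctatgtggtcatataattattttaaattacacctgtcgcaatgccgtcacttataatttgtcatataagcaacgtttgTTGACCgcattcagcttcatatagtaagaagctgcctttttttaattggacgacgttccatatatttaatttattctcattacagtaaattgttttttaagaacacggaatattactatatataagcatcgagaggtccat
CYP81F2 promoter, chr5:23187590-23187839, plus strand: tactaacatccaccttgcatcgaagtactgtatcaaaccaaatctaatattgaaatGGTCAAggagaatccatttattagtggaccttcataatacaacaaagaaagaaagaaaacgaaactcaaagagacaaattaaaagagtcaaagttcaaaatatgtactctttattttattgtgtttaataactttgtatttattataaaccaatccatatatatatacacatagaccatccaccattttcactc
The match was on the gene's own strand in PXMT1 and on the opposite strand, as GGTCAA, in CYP81F2.

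**Figure D2:**
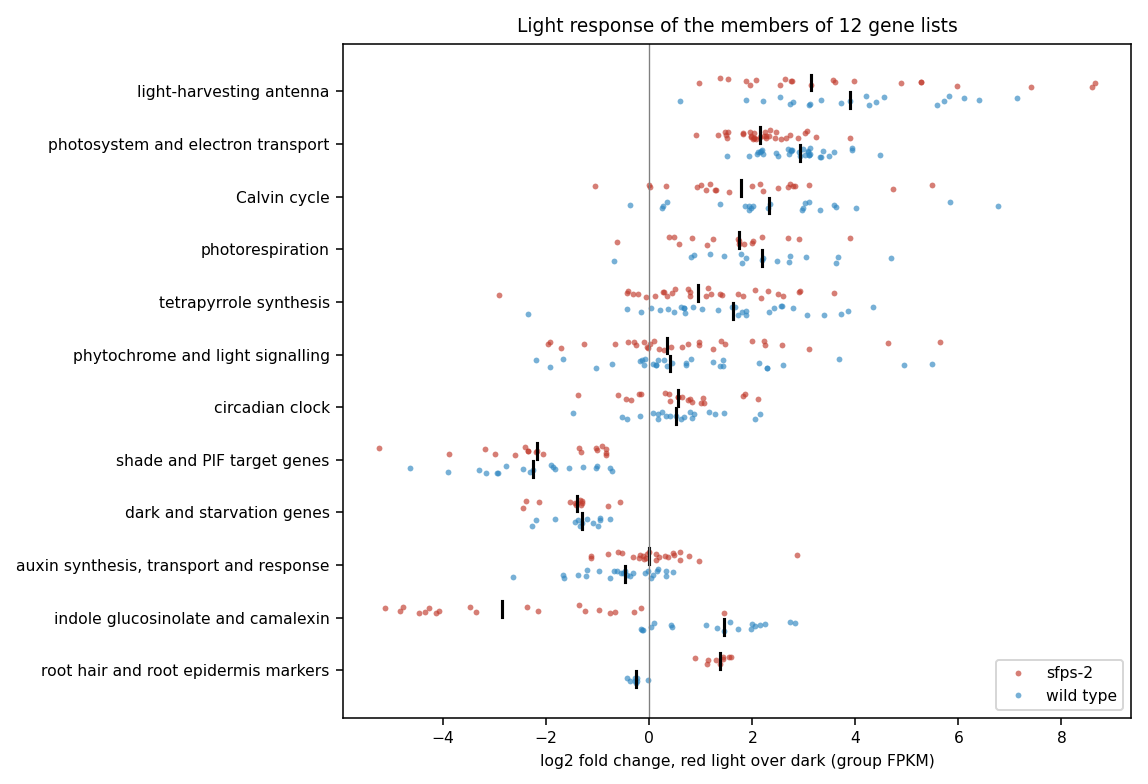
log2 fold change, red light over dark, of each tested member of 12 gene lists (points), for sfps-2 (upper, red) and wild type (lower, blue), with list medians as black bars. Photosynthesis lists lie above 0 and shade and starvation lists below 0 in both genotypes, while the indole list has a median of -2.87 in sfps-2 and 1.45 in wild type and the root hair list 1.37 and -0.26.

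Some genes of auxin response and of roots rose in sfps-2 and fell in wild type, and those named first were chosen for that. GH3.1, an auxin-conjugating enzyme, stood at 13.2 FPKM in red light and 1.82 FPKM in the dark in sfps-2, against 0.70 and 2.21 FPKM in wild type. AIR1, an auxin-induced root gene, stood at 2616 and 594 FPKM in sfps-2, against 174 and 405 FPKM in wild type. LBD29, a lateral root regulator, stood at 17.9 and 4.25 FPKM in sfps-2, against 3.85 and 7.19 FPKM in wild type. AZG2, a purine permease, and AT4G15160 and AT4G12545, both of the lipid-transfer family of AIR1, also rose in sfps-2 and fell in wild type. Of 25 auxin genes 5 rose, 4 fell and 16 did not pass in sfps-2, with a median log2 change of 0.00, and the rises and falls in sfps-2 stand against 0 and 10 in wild type. The response was higher in sfps-2 for 7 of 25, and for 3 with straight standard errors. IAA5, an early auxin-response gene, stood at 17.1 and 8.75 FPKM in sfps-2, against 5.24 and 13.6 FPKM in wild type.

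Markers of another tissue moved with these genes. Of 9 root hair and root epidermis markers 8 rose in sfps-2 and 1 did not pass, with 0 rises and 0 falls among 8 in wild type. EXPA7, a root hair expansin, stood at 5.27 and 2.03 FPKM in sfps-2, against 1.87 and 2.25 FPKM in wild type. Their summed level was 21.8 FPKM in red light and 8.87 FPKM in the dark in sfps-2, against 7.63 and 9.31 FPKM in wild type, and no marker was at 0. The response was higher in sfps-2 for 8 of 8, and for 0 with straight standard errors. In such bulk samples more cells of a type and more RNA per cell cannot be told apart, and the part of root tissue in the auxin result was not tested. Seed storage and late embryogenesis genes, as another marker list, summed to 798 FPKM in red light and 630 FPKM in the dark in sfps-2, against 155 and 94.4 FPKM in wild type. In that list of 12, 1 gene rose and 4 fell in sfps-2, against 7 and 0 in wild type. The response was higher in sfps-2 for 1 and lower for 7, and with straight standard errors higher for 0 and lower for 3. Of 12 heat and touch genes 5 rose and 1 fell, against 7 and 0 in wild type.

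Spliced reads gave a check of expression with a value for each library. Of 674 genes with reads at a listed intron in the 6 libraries, edgeR called 158 higher (23.4%) and 109 lower (16.2%) in red light, 39.6% in all. Of the 167 genes called higher from FPKM, 141 were called higher by edgeR and 0 lower. Of the 74 called lower, 59 were called lower, and 1, AT4G16920, a disease resistance gene, was called higher. ELIP1 had 1888, 2654 and 1136 normalised reads in red light and 55.9, 131 and 39.6 in the dark. LHCB2.3 had 5406, 4591 and 2417 reads in red light and 253, 509 and 415 in the dark. The lowest red-light library was far above the highest dark library in both. CCA1 had 419.5, 386 and 339.5 reads in red light and 127, 175 and 122 in the dark. CKX5, a cytokinin oxidase and PIF target, had 56.7, 55.6 and 56.4 reads in red light and 319, 293 and 304 in the dark. FHY1 had 247, 182 and 195 reads in red light and 692, 689 and 737 in the dark. None of these groups overlapped, and the edgeR adjusted p was 7.29e-04 for CCA1, 2.68e-05 for CKX5 and 1.61e-04 for FHY1.

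**Figure D3:**
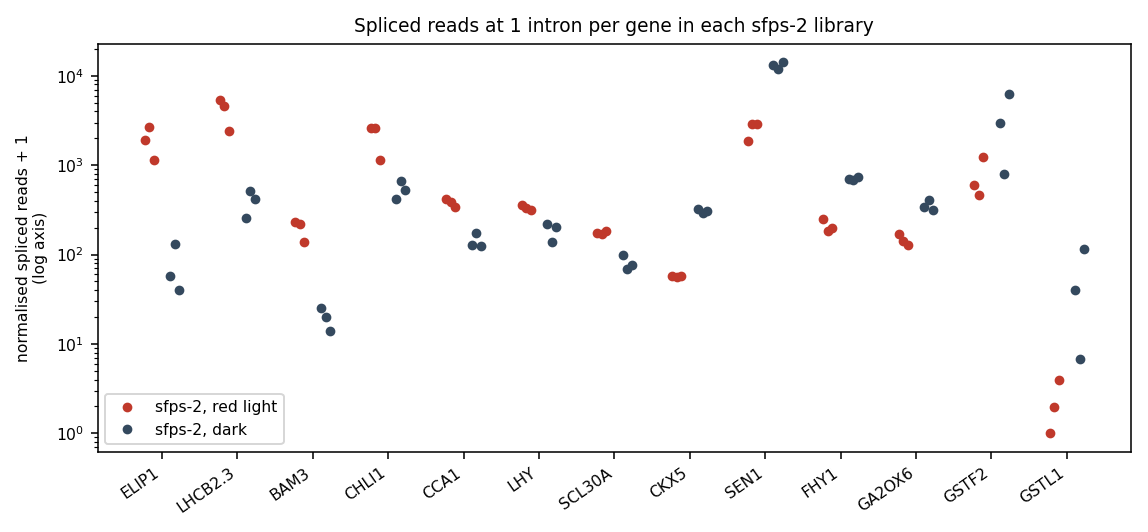
Normalised spliced reads plus 1 (log axis) at the intron with most spliced reads in 13 genes, for the 3 red-light (left of each pair) and 3 dark (right) sfps-2 libraries. The groups are separate in 12 of the 13 genes, and GSTF2 and GSTL1 spread most among their dark libraries.

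Splicing changed in 493 bins (stretches of introns or exons) of 405 genes that the authors listed for red light in sfps-2, at an FDR under 5% in the authors' deposited table and a change of at least 3 points in the share of reads that keep the bin. For an intron, that share sets reads over its boundaries against reads that join its flanking exons. The RNA was freed of ribosomal RNA, so boundary reads may also come from transcripts not yet spliced. Their part in the shares was not tested. Nearly all events were retained introns. Plain introns made up 426 bins, of which 189 were retained more and 237 less in red light. Introns that overlap another annotated intron added 40, and 14 were exon parts that are introns in another transcript. Exon skipping made up 4 events and alternative splice sites 2. The median change was 6.13 points among the 228 higher events and -8.04 points among the 265 lower ones. All these were selected on this contrast, so the tests that follow describe how well 3 libraries separate from 3 and are no independent evidence. Limma on the log2 odds passed 347 of the 493 (70.4%), 160 higher (32.5%) and 187 lower (37.9%), and the libraries of the groups did not overlap in 396 (80.3%). A two-sided exact permutation test of 3 against 3 cannot go below p = 0.1.

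Most of the largest changes were introns kept in a smaller share of reads in red light. Of the 12 events with the largest change and at least 10 reads in each library, 8 were retained introns that fell. An intron of PRMT1A, a protein arginine methyltransferase, was kept in 3.23%, 9.09% and 8% of reads in red light and in 77.8%, 50% and 50% in the dark, though on as few as 12 reads in a library. The only intron of COL2, a CONSTANS-like factor, was kept in 15%, 13.1% and 27.3% in red light and in 55.8%, 62.7% and 60.5% in the dark. The last intron of AT5G57770, an auxin canalization protein in RefSeq, was kept in 9.84%, 14.3% and 4.76% in red light and in 47.1%, 58.2% and 50.8% in the dark. No library of one condition reached the range of the other in these 3 introns, and limma gave adjusted p of 0.0058, 0.0061 and 0.0057. The change in COL2 came mostly from reads that join the exons, which numbered 362, 403 and 198 in red light and 36, 31 and 31 in the dark. Reads over its boundary at the lower coordinate numbered 80, 86 and 100 in red light and 70, 67 and 64 in the dark. Those over its other boundary numbered 48, 35 and 49 in red light and 21, 37 and 31 in the dark. COL2 as a gene rose by 3.23 on the log2 scale.

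These introns, and those of other genes described next, are shown as examples of those kept less often in red light. They are printed from RefSeq TAIR10.1, 5' to 3' on the gene's strand, with the splice site dinucleotides at both ends in capitals, and each lies within the coding region and holds a stop codon in the reading frame of the exon before it.
PRMT1A intron, chr2:8499720-8499819, minus strand: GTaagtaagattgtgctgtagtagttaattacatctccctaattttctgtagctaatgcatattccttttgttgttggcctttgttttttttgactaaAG
COL2 intron, chr3:487798-487940, minus strand: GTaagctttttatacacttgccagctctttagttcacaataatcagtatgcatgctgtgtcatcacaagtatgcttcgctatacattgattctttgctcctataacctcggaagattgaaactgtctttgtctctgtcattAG
AT5G57770 intron, chr5:23401330-23401425, minus strand: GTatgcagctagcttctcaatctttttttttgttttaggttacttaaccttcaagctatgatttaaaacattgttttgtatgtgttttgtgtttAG
CaS intron, chr5:7736995-7737073, minus strand: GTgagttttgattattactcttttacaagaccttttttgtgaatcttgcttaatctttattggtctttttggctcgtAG
LNK2 intron, chr3:20177705-20177934, minus strand: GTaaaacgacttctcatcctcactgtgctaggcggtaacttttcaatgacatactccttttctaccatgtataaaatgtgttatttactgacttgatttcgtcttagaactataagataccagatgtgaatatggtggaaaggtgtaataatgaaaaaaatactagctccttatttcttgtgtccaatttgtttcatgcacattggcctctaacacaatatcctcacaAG
LHY intron, chr1:36686-36809, minus strand: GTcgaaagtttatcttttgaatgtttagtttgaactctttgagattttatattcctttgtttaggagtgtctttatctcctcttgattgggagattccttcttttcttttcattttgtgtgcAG

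Among the remaining events of the largest 12, an intron of AT3G08660, of the NPH3 family, was kept in 15.9%, 12.2% and 15.8% in red light and in 73.3%, 92.9% and 33.3% in the dark, with dark replicate 3 nearest to the red-light libraries. AT2G40010, a ribosomal protein of the L10 family, kept an intron in 4.67%, 8.47% and 4.05% in red light and in 39.3%, 42.9% and 55.2% in the dark, with no overlap (limma adjusted p 0.0053). Its boundary reads at the lower coordinate numbered 5, 5 and 6 in red light and 42, 59 and 64 in the dark. Those at the higher coordinate numbered 0, 0 and 0 in red light and 2, 1 and 0 in the dark. Retention of that whole intron is therefore not shown. AT2G47010 kept an intron in 29.4%, 13% and 4.35% in red light and in 57.1%, 44% and 66.7% in the dark, on as few as 10 reads in a library. A pair of the 3 listed introns of ASY3, a meiotic chromosome axis gene, fell by 50.8 and 47.2 points, both with no overlap between the groups. In the latter intron the dark boundary reads were uneven, 80, 67 and 46 at its lower coordinate and 21, 14 and 16 at its higher one. ASY3 lies 1665 bases from PIL1 on chromosome 2, PIL1 itself fell as above, and a part of PIL1 transcription in the ASY3 reads was not tested. Both genes are on the minus strand, with ASY3 upstream of PIL1. The 4 exon bins of AT1G11300, a lectin receptor kinase, rose by 35.3 to 39.4 points, but dark replicate 2 (57.4% to 64.9%) stood with the red-light libraries (51.4% to 76.2%) and away from the other dark libraries (14.3% to 30.5%).

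Listed introns of 3 clock genes were kept less often in red light. All 5 listed introns of LHY were kept less often. The LHY intron printed above was kept in 0.525%, 0.585% and 0% in red light and in 8.64%, 4.72% and 1.75% in the dark. The change was largest in I012, the intron nearest its 5' end, at 4.19%, 3.15% and 5.19% in red light and 15.6%, 9.32% and 17.7% in the dark. LNK2 kept an intron in 15.5%, 8.95% and 12.7% in red light and in 28.6%, 32.9% and 29.8% in the dark. CCA1 kept an intron in 15.7%, 18.7% and 22% in red light and in 30.9%, 22.8% and 30.5% in the dark, a difference with a limma adjusted p of 0.051. These genes also rose in expression. In wild type the same LNK2 intron was kept in 18.6% in red light and 29.5% in the dark, and that of CCA1 in 11.9% and 23.7%.

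Of 30 splicing factor genes in the list, 2 had a listed event, SCL30A and SR34A. SCL30A, an SR-like protein and the only splicing factor gene of the list that rose, kept its intron in 17.4%, 14.6% and 12.9% in red light and in 27.1%, 37.4% and 31.9% in the dark. SR34A included an exon in 28.4%, 27.1% and 27.9% of reads in red light and in 43.1%, 46.6% and 44.4% in the dark. Reads at 1 boundary only were deposited for that exon, and the authors' deposited table gives its group shares as 16.2% in red light and 29.0% in the dark, against 27.8% and 44.9% when recomputed. PRP39, of the U1 snRNP, is not in the list and was chosen after its values were seen. It showed the same form of change, with an exon included in 26.5%, 25.9% and 26.8% in red light and in 47.0%, 47.7% and 44.8% in the dark. These exon shares varied little among replicates, and the limma adjusted p was 0.012 in SR34A and 0.0072 in PRP39. The level of neither gene passed the test, with log2 changes of 0.34 in SR34A and 0.01 in PRP39.

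Light signalling and pigment genes gave events in both directions. PIF7 kept an intron in 9.09%, 11.4% and 12% in red light and in 87.5%, 20.0% and 100% in the dark, but on as few as 2 reads in a dark library. PHYD kept 7.25%, 3.53% and 7.94% in red light and 3.75%, 1.02% and 2.16% in the dark, with overlap between the groups. CHLM, the magnesium protoporphyrin methyltransferase, kept an intron outside its coding sequence more often in red light, in 49.6%, 54.5% and 47.9% against 25.5%, 20.9% and 21.0% in the dark. Its boundary reads were uneven in red light, 620, 935 and 332 at its lower coordinate and 227, 206 and 114 at its higher one. HEME1, uroporphyrinogen decarboxylase, likewise kept 38.3% ± 6.02 in red light and 21.8% ± 5.26 in the dark (SD, n = 3 each), with no overlap between the groups. In wild type the CHLM share was 54.4% in red light and 23.1% in the dark, and the HEME1 share 54.4% and 37.0%. FNR2, ferredoxin reductase, was the only member of the photosystem and electron transport list of 33 with a listed event, at 17.5%, 21.9% and 16.8% in red light and 14.1%, 11.8% and 16.4% in the dark, where limma did not pass it (adjusted p 0.13).

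**Figure D4:**
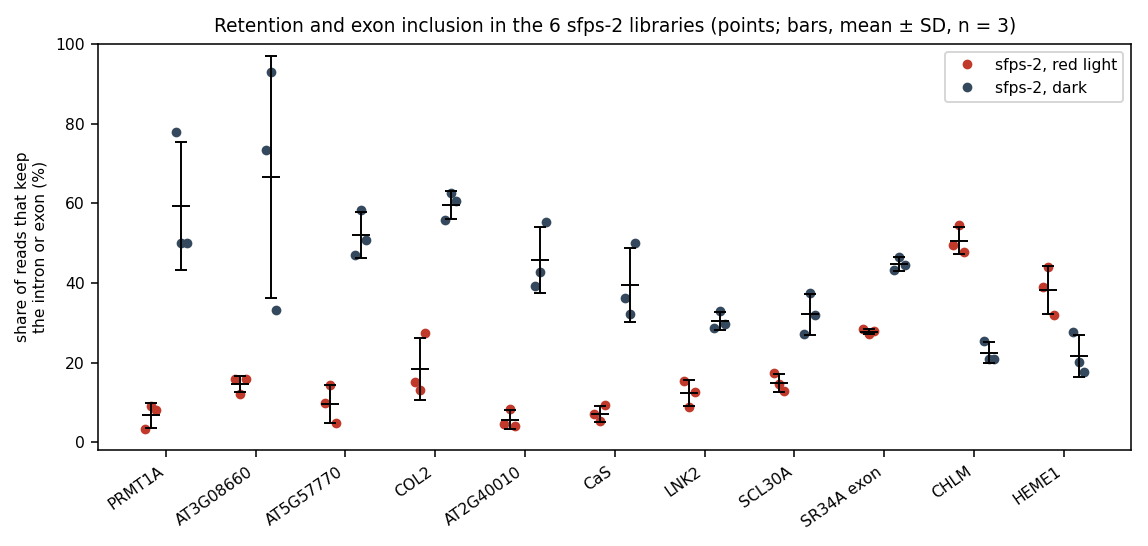
Share of reads (percent) that keep the intron, or the exon in SR34A, in each of the 3 red-light (left, red) and 3 dark (right, dark blue) sfps-2 libraries for 11 events, with mean and SD bars (n = 3). Only CHLM and HEME1 are higher in red light, and the groups do not overlap in any of the 11. In AT2G40010 nearly all boundary reads lay at the lower coordinate of the intron.

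Most genes had 1 listed event. Of 405 genes, 55 had 2 or more, and in 45 of these all events went 1 way. AT1G01320, a tetratricopeptide repeat protein, had most, with 6 introns that were all kept less often in red light. The intron in its 5' leader was kept in 5.72%, 5.46% and 5.13% in red light and in 16.0%, 15.2% and 15.9% in the dark. CaS, the calcium-sensing protein of thylakoids, lost retention at all 5 of its introns. Its last intron was kept in 7.01%, 5.33% and 9.27% in red light and in 36.2%, 32.2% and 50.0% in the dark. Cpn60beta2, a chaperonin subunit, also had 5 introns that were all kept less often. AT1G01320, CaS and Cpn60beta2 rose as genes by 1.62, 3.40 and 2.57 on the log2 scale.

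The listed introns were set beside the expression of their genes. Of 253 introns kept less often in red light whose gene was tested, 129 (51.0%) lay in genes that rose and 27 (10.7%) in genes that fell. Of 210 kept more often, 62 (29.5%) lay in genes that rose and 34 (16.2%) in genes that fell. Among all tested genes 12.4% rose and 8.97% fell. Genes with a listed intron need junction reads, so all tested genes are an unlike background. Of the 674 genes with spliced reads in the 6 libraries, 167 were called higher and 74 lower from FPKM, larger shares than among all tested genes. The 129 introns belonged to 100 genes, so they are not independent, and both measures come from the same libraries.

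**Figure D5:**
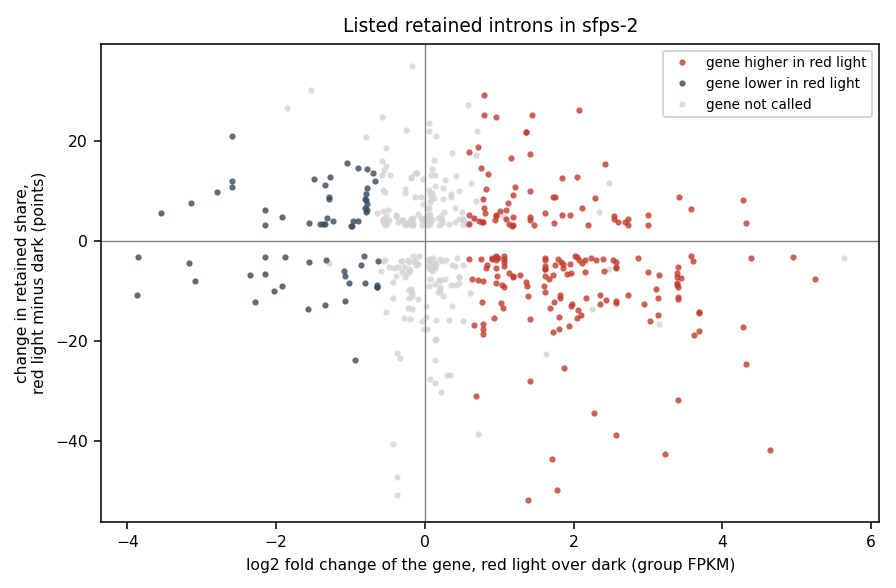
Change in retained share (points, red light minus dark) of each listed retained intron in sfps-2 against the log2 fold change of its gene (group FPKM), coloured by the expression call of the gene. The gap around 0 on the vertical axis is the minimum of 3 points used for listing, and the falls of over 40 points lie mostly in genes that rose.

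Position, length and sequence of the listed introns were described from RefSeq. Of the intron bins, 463 of 466 matched an intron of RefSeq TAIR10.1 by coordinates. The first intron of a transcript made up 38.4% of those kept more often and 29.8% of those kept less often, against 14.6% of 3012 other introns of the same genes and 22.2% of introns of all tested genes. Last introns made up 26.5% and 31.0%, against 11.5% and 18.1%, so neither end stood out alone. A transcript's only intron counts as both first and last. Median length was 100 bases in introns kept more often and 132.5 bases in those kept less often, against 98 bases in the other introns and 102 bases in introns of all tested genes. GT and AG ends were found in 97.6%, 98.8% and 98.7% of the 3 sets. Within coding regions 89.1% of introns kept more often and 94.0% of those kept less often held an in-frame stop, against 88.4% of the others. These shares are descriptions without a test.

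The splicing response to light was also set against wild type. Of the 493 listed bins, 177 (35.9%) were also listed for red light in wild type, which is 21.7% of the 816 wild-type bins, and 170 of the 177 moved the same way. A limma interaction of genotype and light over 582 bins with reads in all 12 libraries called 0 bins (0%), with 27 at an unadjusted p under 0.05 and a lowest adjusted p of 0.25. That test covers only bins whose reads were deposited for all 12 libraries and does not show that the responses are equal. COL2, for example, stood at 17.1% in red light and 59.7% in the dark in sfps-2 over pooled reads, against 13.2% and 60.4% in wild type. CaS stood at 6.87% and 38.7% in sfps-2, against 6.24% and 59.3% in wild type.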

How the data were processed

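Total RNA of whole seedlings was sequenced in 12 libraries, and the 6 sfps-2 libraries were grouped by their titles. The submitters' processing notes name FastQC, TopHat2, Cufflinks and TAIR10, and the series text names ASpli; versions, and whether counting used strand, are not given in the sources used here. The authors deposited Cuffdiff results per comparison, per the file headers: group FPKM, a test score (the Cuffdiff statistic), and a p-value and q-value per gene. FPKM came with no value per library, so the authors' test was used as deposited in place of a test over samples. For splicing the authors deposited read counts over the 2 boundaries and the spliced junction of each bin in each library, with a retained fraction (share) per group and an FDR.

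A gene was called at q under 0.05 and a fold of at least 1.5. Shares were recomputed from the read counts, and 3 exon bins with 1 boundary junction (PPDK, SR34A, AT1G52500) differ from the deposited share, by up to 16.7 points. Limma 3.58.1 in R 4.3.3 tested log2 odds with 0.5 added to each count, and edgeR 4.0.16 (TMM) tested spliced reads. Differences in light response between genotypes used normal p-values with Benjamini-Hochberg adjustment, and the procedures were tested on simulated data. Tables were handled in Python 3.11.15 with pandas 2.3.3. Sequences are from RefSeq TAIR10.1, and 463 of 466 intron bins matched it by coordinates. Genes were named by rule: the 12 largest rises and falls, the 6 highest after light, up to 4 called members per list and direction with those behind counts of 5 or fewer, up to 6 called oppositely in wild type, the 12 largest events with at least 10 reads in each library, list members with events, and the 5 genes with most events. Members, lists and tests were chosen with earlier results of these data known. Alternatives changed the fold, q, FDR, point and read minimums, the pseudocount, the centring, the standard errors and the libraries.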

Additional observations from a re-analysis of the deposited data

Results flagged for a closer look

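The genes below responded to light differently in sfps-2 than in wild type, by the normal test of the difference of log2 changes adjusted over all tested genes. Values are sfps-2 minus wild type, on the log2 scale. Among antenna, carbon fixation and photoprotection genes the difference was 1.52 for LHCB1.1, 4.33 for LHCB1.4, 1.01 for LHCB1.2, -1.28 for RBCS1B and -1.41 for ELIP1. The LHCB1 and RBCS copies may share reads. With standard errors straight from the Cuffdiff statistic, LHCB1.4 still passed, and LHCB1.1, LHCB1.2, RBCS1B and ELIP1 did not (adjusted p 0.28, 1.00, 0.37 and 0.20). Under those errors 19 of the 23 genes in this section passed.

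Genes that fell far in sfps-2 had the widest gaps. The difference was -7.57 for FOX1, -7.28 for AT1G26390, -7.19 for PXMT1, -7.02 for CYP71A12, -6.91 for CYP82C2, -6.74 for PP2-A3 and -6.44 for GLP4. It was -6.25 for GSTF6, -6.12 for AT2G23270, -5.68 for GSTF7, -5.68 for PLA2A and -4.3 for the chitinase gene AT2G43570. FOX1 stood at 1.87 FPKM in red light and 53.3 FPKM in the dark in sfps-2, against 6.87 and 1.03 FPKM in wild type. CYP82C2 and PP2-A3 stayed below 1 FPKM in all 4 groups.

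Genes that rose in sfps-2 and fell in wild type differed by 4.51 for GH3.1, 4.1 for AZG2, 3.36 for AIR1, 3.24 for AT4G15160, 2.98 for LBD29 and 2.9 for AT4G12545. AT4G12545 stood at 524 FPKM in red light and 127 FPKM in the dark in sfps-2, against 47.6 and 85.7 FPKM in wild type.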

How the results depend on the processing

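Expression was deposited as group FPKM, so no library could be left out of those counts. A fold of at least 2 left 1541 genes higher and 1025 lower. With standard errors straight from the Cuffdiff statistic, 297 genes differed in light response. A minimum of 10 points left 73 events higher and 104 lower, and an FDR under 0.01 in the authors' deposited table left 118 and 150. Leaving out 1 library at a time, limma called 88 to 123 events higher and 113 to 145 lower. The counts moved by over 1.5 times without red-light replicate 1 (101 and 114) and red-light replicate 2 (88 and 114), and the lower count without dark replicate 1 (113). The splicing difference between genotypes ranged from 0 to 1 bin, with 1 bin without sfps-2 dark replicate 1. Deviations from the group mean in log2 spliced reads correlated at -0.39, 0.45 and -0.20 between same-numbered red-light and dark libraries. Between libraries of different number they correlated at -0.53 to 0.69. Deviations within a group are tied to each other, so these values cannot decide whether replicate numbers pair samples. With a replicate block limma called 129 events higher and 148 lower. Of the gene calls that were rechecked, 12 were lost and 342 kept with a pseudocount of 1 FPKM. When centred on the median, 1, LUX, was lost and 353 were kept. This recheck covered only a part of the called genes. No value in these alternatives reversed. Few junction reads limit PIF7, PRMT1A and ASY3.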

Other observations

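Some other gene families, chosen after values were seen, moved with the defence genes. Over all tested genes 12.4% rose and 8.97% fell in sfps-2, against 14.9% and 5.85% in wild type. Of 58 WRKY factors tested in sfps-2, 2 rose and 21 fell, with a median log2 change of -0.49, against 5 and 3 of 52 in wild type. WRKY45 stood at 9.49 FPKM in red light and 39.0 FPKM in the dark in sfps-2, against 20.3 and 20.0 FPKM in wild type. Of 27 cysteine-rich receptor-like kinases 4 rose and 11 fell, against 9 and 0 of 26 in wild type. CRK25 stood at 7.96 and 27.3 FPKM in sfps-2, against 13.1 and 10.2 FPKM in wild type. Of 25 tau glutathione transferases 2 rose and 7 fell, against 8 and 2 in wild type, and GSTU12 stood at 2.1 and 25.7 FPKM in sfps-2, against 5.42 and 1.25 FPKM in wild type.

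Class III peroxidases, which act on cell walls, went both ways: of 59 tested, 10 rose and 15 fell, against 11 and 5 of 57 in wild type. PER4 stood at 9.21 and 73.1 FPKM in sfps-2, against 26.2 and 6.17 FPKM in wild type. Of 15 SAUR growth genes 0 rose and 10 fell, against 0 and 14 in wild type. Of 247 pentatricopeptide repeat genes, whose proteins process organelle RNA, 25 rose and 6 fell, against 45 and 2 of 243 in wild type. In sfps-2 both shares were below those of all tested genes. In wild type the share that rose was above the overall share and the share that fell below it. The difference between genotypes was not tested for these families.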
